A study of Arabidopsis thaliana with 96 samples.

Results

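The root epidermis is the outermost living layer of the root and the first to meet salt in the medium. Epidermal cells either form root hairs or stay hairless. WEREWOLF (WER) is a MYB transcription factor of the hairless fate, and its promoter is also active in the lateral root cap, the tissue that sheathes the root tip. Inside the epidermis lie the cortex, the endodermis, which builds the lignified Casparian strip, and the stele with its vascular tissue. Secreted class III peroxidases use hydrogen peroxide to cross-link or loosen wall polymers, and some of them polymerise lignin in the inner tissues.

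The results concern the transcripts that set the epidermis apart from those inner tissues once roots had spent 48 h on 140 mM NaCl. The arrays were chosen by their labels alone. They are the 3 arrays of WER::GFP cells at 48 h of salt, out of 96 arrays in the series, set against the mean of the cortex, endodermis and stele arrays of the same treatment and time (3 each, with equal weight for each cell type). All plants were Columbia seedlings of 5 to 7 days, and whole roots were turned into protoplasts from which GFP-positive cells were sorted before hybridisation to ATH1 arrays. The cortex was sorted by COR::GFP, the endodermis by SCR::GFP and the stele by WOL::GFP, and what the lines or the sorting runs add to a difference between cell types cannot be told apart from it. The same 4 lines on standard medium for 48 h, again with 3 arrays each, give the contrast for comparison. The contrast is a difference of log2 GCRMA values, epidermis minus the mean of the other 3 types, and a gene was called where the adjusted p was under 0.05 and the contrast at least 1 (log2), that is 2-fold. In bulk samples of this kind, fewer cells of a type and less RNA per cell cannot be told apart.

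At 48 h of salt, 506 of 7281 tested genes were called higher in the epidermis (6.95%) and 838 were called lower (11.5%). In standard medium at 48 h, 482 genes were higher (6.62%) and 821 lower (11.3%). The genes called lower thus outnumbered those called higher in both media, and 37.6% of the calls were higher under salt, against 37% in standard medium. That balance follows the scale of the arrays. With each array centred on its own median, 51.9% of the calls were higher under salt, against 48.8% in standard medium. Centring moved the median contrast of all genes to 0.21 under salt, against 0.06 as deposited, and to 0.16 in standard medium, against 0.01. On 455 of the 506 higher genes (89.9%), the 3 epidermis arrays lay above all 9 arrays of the other types, an arrangement that 19.7% of all tested genes showed, against 12.6% in standard medium. On 664 of the 838 lower genes (79.2%), they lay below all 9, against 14.3% of all tested genes. The genes were called on these same arrays, so both shares follow in part from the selection and are no separate support. Of the 838 lower genes, 521 (62.2%) had an epidermis mean under 5 (log2), the level that a gene had to reach in at least 1 group to be tested. Contrasts of such genes can be understated, since the files give no detection limit.

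The labelled cell type was checked against marker genes, few of which had a probe set for a single gene. No listed epidermal patterning gene and no listed root hair regulator could be tested, nor could any gene of the suberin, jasmonate, nutrient uptake, sodium transport, flavonoid, camalexin and cutin lists. Of 33 listed root hair growth genes, 5 were tested and 0 were called in either medium. Of all tested genes, 6.95% were called higher and 11.5% lower under salt, and 6.62% and 11.3% in standard medium. The median contrast of the 5 was -0.54 under salt and -0.64 in standard medium. All 5 had their highest mean in the stele in both media. EXPA7, an expansin of growing root hairs, gave 6.09, 5.27 and 6.05 on the epidermis arrays under salt, against 7.27, 6.80 and 7.07 for cortex, 3.78, 4.94 and 4.58 for endodermis and 7.32, 7.17 and 8.53 for stele. Each epidermis array was thus below every cortex and stele array and above every endodermis array, and the contrast of -0.58 did not pass the test (adjusted p = 0.17). EXPA18, a second expansin of root hairs, read 5.91 ± 0.41 in the epidermis and 7.98 ± 0.66 in the stele (SD, n = 3 each). With no patterning gene tested and no hair gene in excess, the name epidermis rests here on the reporter and stands for WER::GFP-sorted cells.

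Markers of the cortex and endodermis were low on the epidermis arrays. Both tested cortex markers were called lower, AT1G09750 by a contrast of -1.90 and AT1G62510 by -3.66. Both tested endodermis markers were also called lower, and of all genes 11.5% were called lower under salt. GSO1, the receptor kinase that guards the continuity of the Casparian strip, gave 3.44, 3.42 and 3.44 in the epidermis, while the other 9 arrays ran from 6.81 to 10.41. The other endodermis marker, AT1G61590, had a contrast of -5.61. LHW, a transcription factor of vascular precursors and the only tested stele marker, differed by -0.41 and was not called. Of 3 tested genes listed as root cap markers, 1 was called higher under salt and 2 in standard medium, beside 6.95% and 6.62% of all genes. All 3 had their highest mean in the stele under salt and in the epidermis in standard medium. Their values are thus not a measure of root cap cells alone. AT4G04460 was called higher (1.37), with 9.18 ± 0.17 for epidermis, 6.99 ± 0.19 for cortex, 6.78 ± 0.45 for endodermis and 9.63 ± 0.24 for stele (SD, n = 3 each). The mean was thus below that of the stele. Without the endodermis in the mean of the other types its contrast was 0.86, and without the cortex 0.97, both short of the threshold. The second gene of that list, scpl48, had a contrast of 0.71. AT2G14095, the third, gave 5.44, 4.33 and 4.64 under salt and 10.21, 8.35 and 7.93 in standard medium on the epidermis arrays. Its contrast was 0.28 under salt and 2.28 in standard medium, a change of -2.01 (adjusted p = 0.000393). The part of root cap cells in any epidermis value was not tested.

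The epidermis arrays in standard medium were less alike than those under salt, which bears on every comparison of the 2 media. Replicates 1 and 3 in standard medium correlated with their group at 0.940 and 0.943, while the 3 arrays under salt stood at 0.981 to 0.982. Replicate 1 in standard medium was the highest of its group for AT2G14095 (10.21) and the lowest for EXPA7, where the 3 arrays read 6.35, 8.95 and 9.56. Without replicate 3 of that group the changes between media counted 316 up and 394 down, and without replicate 1 they counted 206 up and 356 down, against 215 and 331 with all arrays. Under salt, endodermis replicate 1 stood lowest at 0.971. Without it 431 genes were higher and 846 lower in the epidermis. The actin 3′ minus 5′ signal, a sign of RNA integrity, averaged 3.93 ± 0.09 for epidermis, 3.96 ± 0.10 for cortex, 3.70 ± 0.17 for endodermis and 3.93 ± 0.20 for stele under salt (SD, n = 3 each), against 3.50 to 3.56 in the 4 types in standard medium. The same signal for GAPDH averaged 0.68 ± 0.45, 0.57 ± 0.26, 0.71 ± 0.10 and 0.14 ± 0.07 under salt, in that order. In standard medium it averaged 0.48, 0.42, 0.51 and 0.61, so the stele alone was lower under salt. Epidermis replicate 1 under salt read 1.19 for GAPDH, against 0.38 and 0.46 for the others. For ubiquitin the means were 1.17 to 1.41 under salt and 1.05 to 1.33 in standard medium. The part of RNA quality in the change between media was not tested.

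The largest excess under salt was that of sks16, a wall protein of the SKU5-similar family, relatives of multicopper oxidases. On the epidermis arrays sks16 gave 9.04, 9.72 and 9.03, while the 9 arrays of the other types ran from 3.99 through a median of 6.13 to 7.00. The contrast was 3.50 ± 0.33 (SE, adjusted p = 1.22e-14), against 3.44 in standard medium. Its paralogue sks15 gave 9.39, 10.03 and 9.67, against 3.93 to 7.89 on the other arrays, with a contrast of 3.27 ± 0.35 under salt and 3.08 in standard medium. For both genes no epidermis array overlapped any other array under salt, as the rule that named them required. The founding member SKU5, which guides directional root growth, was not among them, with a contrast of -0.47 that was not called. The level of both genes nonetheless fell with salt in the epidermis, sks16 to 9.26 ± 0.39 under salt, against 10.76 ± 1.17 in standard medium (SD, n = 3 each). The mean of the other types fell by 1.56 on the log2 scale for sks16, and the change in contrast, 0.06 ± 0.47, was not called.

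Others of the leading excess genes are known in the files only by code. AT2G43600 reached 10.68, 10.87 and 10.19 in the epidermis, against 4.86 to 8.46 elsewhere, and its contrast was 3.45 ± 0.33. AT1G50050 gave 7.84, 7.98 and 6.24 in the epidermis, while the 9 other arrays lay between 3.66 and 4.17. AT5G10130 averaged 12.19 for epidermis, against 9.89 for cortex, 7.97 for endodermis and 9.75 for stele. These 3 genes had no epidermis array within the range of the others, as the rule that named them required. AT5G58784, AT4G01240, AT5G60530 and AT5G51520 had contrasts of 3.30, 3.27, 2.97 and 2.82. In standard medium those contrasts were 3.35, 3.49, 2.68 and 2.87, and none of the 4 changes was called. Among the leading excess genes the endodermis mean was the lowest of the other 3 types except for AT1G50050, where the stele was lowest.

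ASPGB1, an asparaginase that releases ammonium from asparagine, was the only one of the 12 largest excesses whose contrast was called higher under salt than in standard medium. Its epidermis arrays gave 9.82, 9.86 and 8.83 under salt, against 7.90, 7.72 and 6.80 in standard medium. The 9 arrays of the other types under salt lay between 6.08 and 7.52, below all 3 epidermis arrays, as the rule that named the 12 genes required. The contrast was 2.71 ± 0.29 under salt and 1.65 in standard medium. The change of 1.06 (adjusted p = 0.0475) sits at the threshold and was lost when single arrays of the epidermis, cortex, endodermis or stele were left out, at 0.72 without replicate 3 of the epidermis in standard medium. CYP78A9, a cytochrome P450 of a subfamily that promotes organ growth, gained more. It gave 7.46, 7.82 and 7.41 in the epidermis under salt, against 4.30 to 6.18 on the other 9 arrays. In standard medium its epidermis arrays read 6.39, 6.92 and 7.02, just above the 5.72 to 6.31 elsewhere. The contrast was 2.23 ± 0.19 under salt and 0.77 in standard medium, a change of 1.46 (adjusted p = 3.59e-05).

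**Figure D1:**
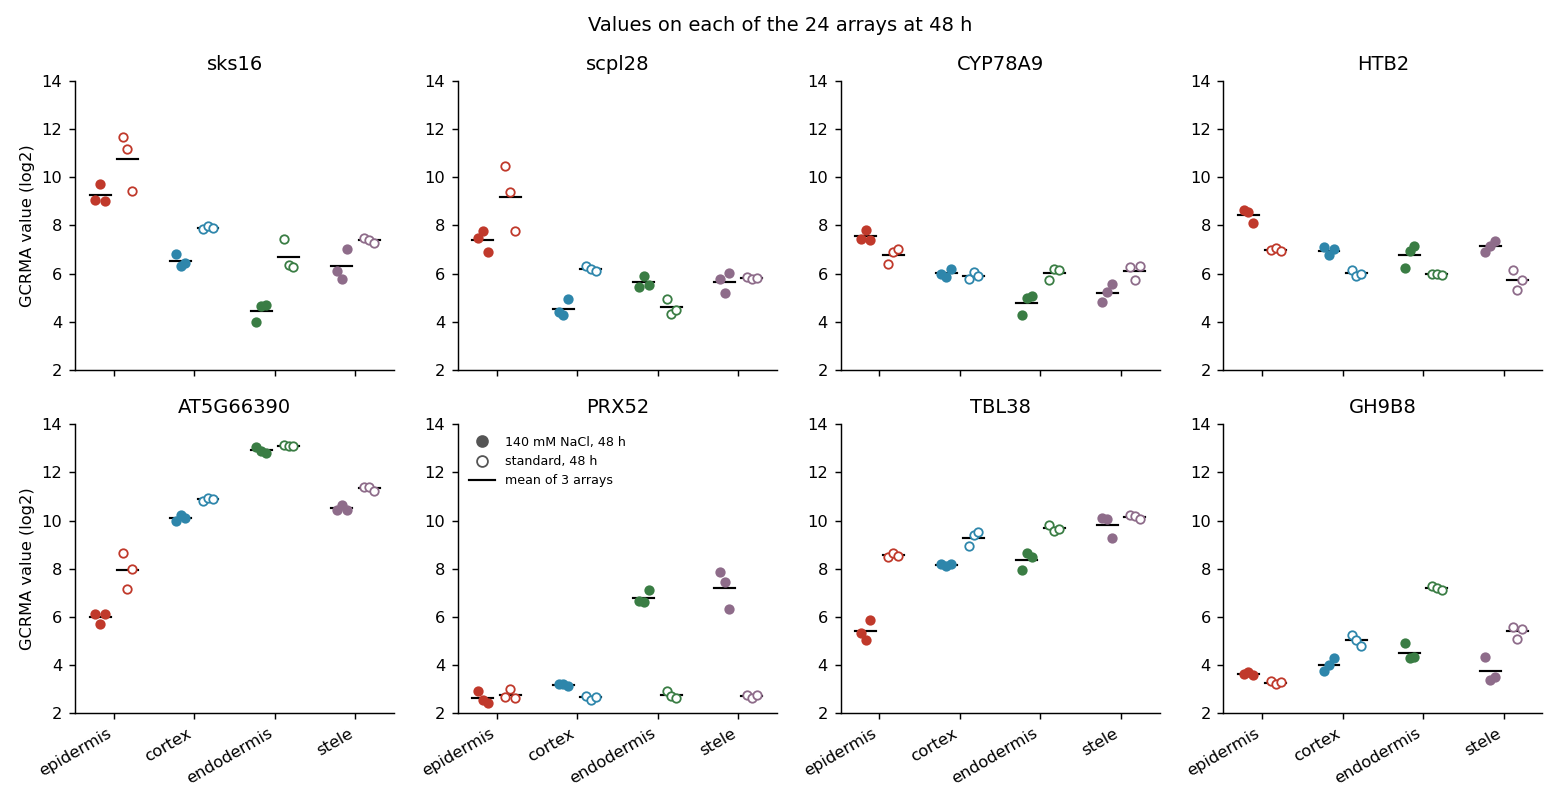
GCRMA values (log2) of 8 genes on the 24 arrays at 48 h, by cell type, with 140 mM NaCl as filled points, standard medium as open points and the mean of 3 arrays as a line. The epidermis stands above every other array for sks16 in both media, whereas PRX52 is near 3 in the epidermis and has means of 6.79 and 7.21 in the endodermis and stele under salt.

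UDP-glycosyltransferases, which attach sugars to small molecules, were called in both directions. UGT72E1, a glucosyltransferase of monolignol aldehydes, gave 6.21, 6.94 and 6.16 in the epidermis, against 3.00 to 4.30 on the 9 other arrays. Its contrast was 2.69 ± 0.25 under salt and 3.07 in standard medium. Most called members of the family went the other way. Of 33 tested UDP-glycosyltransferases, 2 were higher and 8 lower under salt, against 2 and 6 in standard medium. Of all genes 6.95% were higher and 11.5% lower under salt, against 6.62% and 11.3% in standard medium, so the higher members came to a share near that of all genes. UGT74D1 (-2.40), UGT76E12 (-2.07) and UGT74B1 (-1.96), the last an enzyme of glucosinolate synthesis, had the largest deficits. For UGT74B1 and UGT76E12 the level in the mean of the other types rose with salt while the epidermis response was not called. The median contrast of the 33 genes was -0.41 under salt and -0.18 in standard medium, beside 0.06 and 0.01 over all genes. UGT72E3, chosen after its values were seen, was less depleted under salt, with a contrast of -1.36, against -2.72 in standard medium.

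Serine carboxypeptidase-like genes, whose products cleave peptides or transfer acyl groups, leaned towards the epidermis in both media. Of 13 tested members, 5 were higher and 1 lower under salt, beside 6.95% and 11.5% of all genes. In standard medium 7 were higher and 1 lower, beside 6.62% and 11.3%. With scpl25 the epidermis arrays gave 7.81, 8.17 and 7.75, all above the highest other array (6.05), and the contrast was 2.53 ± 0.32, against 3.35 in standard medium. With scpl28 they gave 7.49, 7.79 and 6.91, against 4.27 to 6.03 elsewhere. In standard medium scpl28 stood higher in the epidermis, at 10.46, 9.38 and 7.75 on the 3 arrays. Its contrast was 2.11 under salt and 3.67 in standard medium, a change of -1.56 (adjusted p = 0.00322) that was not called without replicate 1 of the epidermis in standard medium. SCPL45, depleted in both media, had a contrast of -1.67 under salt and -2.46 in standard medium.

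Some genes of the cell cycle and chromatin stood higher in the epidermis under salt. Of 14 listed cell division genes 2 were tested, and of 9 listed DNA replication genes 1. HTB2, which encodes histone H2B, gave 8.66, 8.58 and 8.12 in the epidermis, against 6.23 to 7.35 on the other arrays. All 3 epidermis arrays were above the others, and the contrast was 1.50 ± 0.25, against 1.08 in standard medium. Of 4 tested H2B genes, 2 were called higher under salt (HTB2 and HTB1, at 1.01) and 1 in standard medium, and 3 rose with salt in the epidermis itself. With so few members, these counts stand beside 6.95% of all genes higher under salt, 6.62% higher in standard medium and 15.6% that rose in the epidermis. The call of HTB1 was lost, at 0.94 to 0.99, without epidermis replicate 1 or 2, cortex replicate 3, endodermis replicate 1 or stele replicate 1 or 3, and at 0.86 with the cortex left out of the mean. AUR1, an Aurora kinase of mitosis, had a contrast of 1.03 under salt and 1.01 in standard medium, and AUR2, a second Aurora kinase, had 0.72 and 0.53. The call of AUR1 under salt was lost without epidermis replicate 1 (0.99) or endodermis replicate 1 (0.96). It was also lost with the cortex (0.83) or the endodermis (0.94) left out of the mean. PRL, the MCM7 subunit of the replicative helicase, gave 6.56, 6.46 and 6.54 in the epidermis, against 4.74 to 5.87 elsewhere. Its contrast was 1.06 and just missed the threshold without cortex replicate 3 or endodermis replicate 1. With the endodermis left out of the mean it was 0.88 and not called. AT5G48940, the tested gene of the meristem list, had 1.15 under salt and 2.31 in standard medium. The change was not called without epidermis replicate 1 (-0.81) or 2 (-1.06) in standard medium, or replicate 1 or 3 under salt. It was also not called with array weights or with the endodermis left out of the mean (-0.86).

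Deficits were larger than excesses. The gene most depleted in the epidermis was AT4G11290 of the class III peroxidase family, with 3.27, 3.31 and 3.34 in the epidermis, against 8.62, 8.66 and 8.86 for cortex, 11.23, 10.70 and 10.65 for endodermis and 7.80, 7.64 and 8.05 for stele. Its contrast was -5.83 ± 0.20 (adjusted p = 3.56e-37), against -4.93 in standard medium. The epidermis arrays lay near the bottom of the scale, over 4 log2 units below the nearest array of another type. AT5G66390, annotated as PEROXIDASE 72, gave 6.12, 5.72 and 6.13 in the epidermis, against 9.96 to 13.06 elsewhere. In standard medium its epidermis arrays read 8.65, 7.16 and 7.99. The contrast deepened to -5.19 under salt, against -3.84 in standard medium, and the change of -1.34 was called, though not without replicate 1 of the epidermis in standard medium (-0.99). The other leading deficits were AT1G44970 (-5.72), AT2G14900 (-5.52), AT1G55210 (-5.35), AT1G30750 (-5.21), AT1G12080 (-5.19), AT5G65530 (-5.09), Prx37 (-5.07), AT3G22620 (-5.03) and AT4G11210 (-4.98). All were also called lower in standard medium, at -3.53 to -4.48.

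Many class III peroxidases were depleted in the epidermis. Of 40 tested members, 3 were higher and 22 lower under salt, against 5 and 11 in standard medium. Of all genes 6.95% were called higher and 11.5% lower under salt, against 6.62% and 11.3% in standard medium. The median contrast of the 40 genes was -1.12 under salt and -0.50 in standard medium. For 17 of the 40, the 3 epidermis arrays lay below all 9 others under salt, against 12 in standard medium, beside 14.3% and 13.8% of all genes. The contrast was called lower under salt than in standard medium for 13 of them and higher for 0, beside 4.55% and 2.95% of all genes. The 13 genes reached this in different ways. In 7 the mean of the other types rose with salt while the epidermis response was not called, in 5 the epidermis fell while the others' rise was not called, and in 1 neither response was called. With each array centred on its median, 19 of the 40 were lower under salt and 11 in standard medium. The mean of 1 h and 48 h of standard medium as the standard was an alternative chosen after seeing the data. With it the change was called lower for 9 genes, not 13, and Prx37 changed by -0.51 (adjusted p = 0.15).

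PRX52 shows the pattern in which the inner tissues moved. In standard medium all 12 arrays lay between 2.56 and 2.99. Under salt the epidermis arrays gave 2.92, 2.55 and 2.42, against 3.21, 3.21 and 3.11 for cortex, 6.64, 6.62 and 7.11 for endodermis and 7.85, 7.46 and 6.32 for stele. All endodermis and stele arrays lay above the range of standard medium, and the epidermis response to salt, -0.13, was not called. The contrast was -3.10 ± 0.26 under salt and 0.06 in standard medium, a change of -3.15 ± 0.37 (SE, adjusted p = 8.19e-10). AT4G08780 behaved alike, with 3.28 ± 0.18 for epidermis, 4.45 ± 0.05 for cortex, 9.20 ± 0.55 for endodermis and 6.73 ± 0.74 for stele (SD, n = 3 each). Its contrast was -3.51 under salt and -0.67 in standard medium. The sequence of AT4G08780 is close to that of Prx37, and how far their probe sets share signal was not tested. In AT5G06730 the other types rose as well and the epidermis response was not called, with contrasts of -2.79 under salt and -0.57 in standard medium. AT5G06730 and the next 3 genes, AT4G30170, AT1G14550 and AT5G64120, were chosen after their values were seen.

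In other peroxidases the epidermis itself fell. AT4G30170 had a contrast of -1.92 under salt and -0.26 in standard medium, and the epidermis level fell by 2.62 on the log2 scale. AT1G14550 and AT5G64120 were instead called higher in the epidermis in standard medium, at 1.83 and 1.04, but had contrasts of -0.71 and -0.81 under salt. In both, the level of the other types rose and the epidermis response was not called. Of the 40 genes, 3 were higher in the epidermis under salt. AT5G24070 gave 9.29, 9.99 and 9.13 in the epidermis, against 4.11 to 7.59 elsewhere, and its contrast was 3.16 under salt and 3.20 in standard medium. AT2G43480 gave 7.07, 7.44 and 6.95, against 3.45 to 5.13 elsewhere, with 2.71 under salt and 2.62 in standard medium. AT2G18980 was the third peroxidase called higher under salt, at 1.09.

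**Figure D2:**
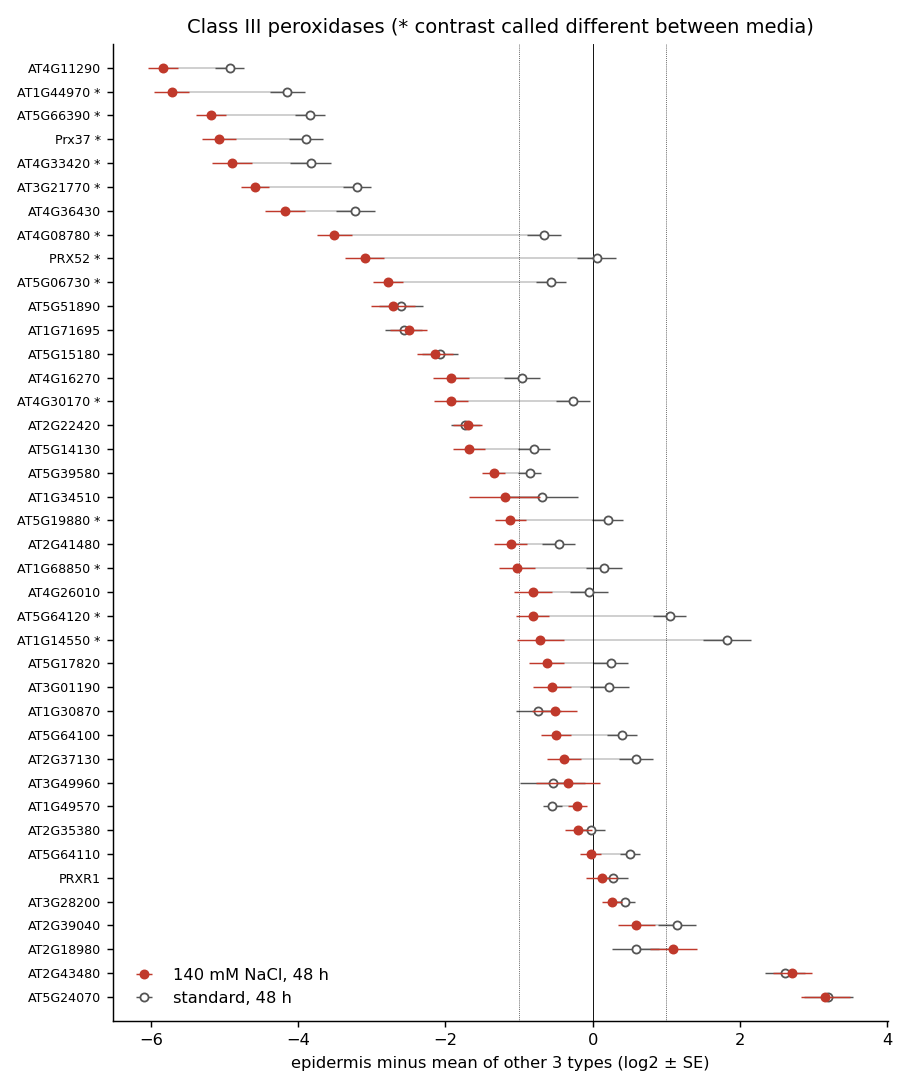
Epidermis contrast (log2, with its SE) of the 40 tested class III peroxidases at 48 h of 140 mM NaCl (filled) and of standard medium (open), ordered by the value under salt, with dotted lines at the threshold of 1 in each direction. Asterisks mark the 13 genes whose contrast was called lower under salt, and AT5G24070 and AT2G43480 stand apart at the lower right in both media.

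Beta-glucosidases shifted between the media. These enzymes release sugars from glycosides, and BGLU45 and BGLU46 hydrolyse monolignol glucosides. Of 11 tested members, 1 was higher and 8 were lower in the epidermis under salt, against 1 and 1 in standard medium, beside 6.95% higher and 11.5% lower of all genes under salt and 6.62% and 11.3% in standard medium. Their median contrast was -1.40 under salt and -0.06 in standard medium. The contrast was called lower under salt for 5 of them, beside 4.55% of all genes, and in all 5 the mean of the other types rose while the epidermis response was not called. BGLU45 gave 3.19, 2.91 and 3.22 in the epidermis, against 6.81, 6.99 and 6.79 for cortex, 8.80, 7.53 and 7.42 for endodermis and 5.17, 4.75 and 4.59 for stele. In standard medium its epidermis arrays read 3.10, 2.82 and 2.61, and the other 9 did not pass 4.27. The change in contrast was -2.77 ± 0.32 (SE, adjusted p = 4.6e-10).

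The other members differed in where they rose. BGLU40 changed by -2.04, with 2.67 ± 0.36 for epidermis, 4.53 ± 0.21 for cortex, 5.50 ± 0.58 for endodermis and 4.31 ± 0.64 for stele under salt (SD, n = 3 each). BGLU28 was highest in the endodermis under salt, at a mean of 7.71, and BGLU27 and BGLU32, with BGLU25 named after their values were seen, were highest in the cortex, at 6.29 and 5.42. BGLU46 was already depleted in standard medium (-2.88, against -3.54 under salt), and its change was not called. BGLU25 was the only member called higher in the epidermis under salt, with a contrast of 1.52. With each array centred on its median, 7 members were lower under salt, and with genes required to reach a group mean of 6, 3 of the changes were counted because dimmer genes were not tested.

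**Figure D3:**
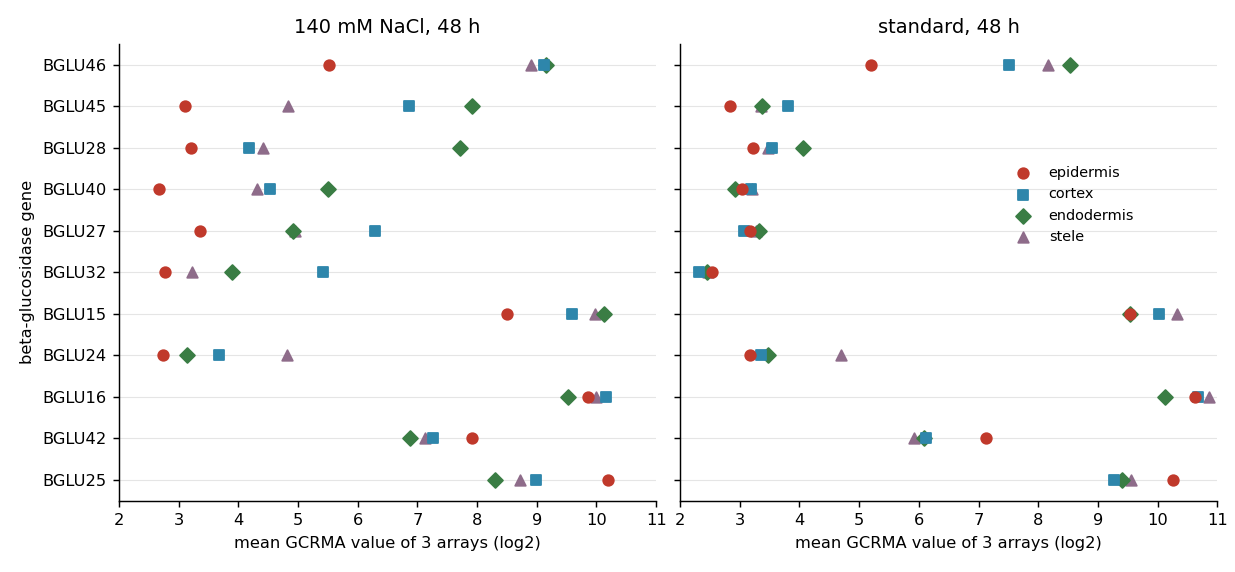
Mean GCRMA value (log2, 3 arrays) of the 11 tested beta-glucosidases in each cell type at 48 h, with 140 mM NaCl on the left and standard medium on the right. BGLU45, BGLU28, BGLU40, BGLU27 and BGLU32 lie at the left, low end of the axis in all 4 types in standard medium, and under salt the epidermis means stay there while inner tissues lie further right.

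In the trichome birefringence-like (TBL) family, whose products acetylate wall polysaccharides, the called changes came with falls in the epidermis. Of 16 tested members, 0 were higher and 6 lower under salt, against 1 and 6 in standard medium. Of all genes 11.5% were lower under salt and 11.3% in standard medium. TBL37 gave 6.02, 5.49 and 6.19 in the epidermis under salt and 7.52, 7.73 and 8.32 in standard medium. Its contrast was -4.32 under salt and -2.07 in standard medium, a change of -2.25. TBL38 gave 5.32, 5.04 and 5.86 in the epidermis under salt and 8.49, 8.64 and 8.52 in standard medium. The 9 other arrays stayed between 7.92 and 10.12 under salt, and its contrast was -3.37, against -1.15 in standard medium. For TBL37, TBL38 and TBL41 the epidermis level fell with salt, and these are the 3 TBL genes whose contrast was called lower under salt than in standard medium, beside 4.55% of all genes. With each array centred on its median, 1 TBL gene was higher under salt and 4 were lower in standard medium.

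Other families had fewer called members. These counts stand beside 11.5% of all genes lower under salt and 11.3% in standard medium. Of 5 tested subtilases, a family of secreted proteases, 3 were lower in each medium, led by SBT4.12 (-4.39 under salt, -3.99 in standard medium). Of 7 defensin-like genes, 3 were lower in each medium, and PDF2.5 gave 4.85, 3.94 and 3.38 in the epidermis, against 7.44 to 9.10 elsewhere. The 3 tested members lower among 8 xyloglucan endotransglucosylases included XTH20 (-2.42) and XTH21, whose deficit was smaller under salt (-1.67) than in standard medium (-3.31). Without the stele in the mean, XTH21 had -0.83 under salt and was not called. SWEET11, a sucrose exporter of the phloem, had -2.31 under salt and -3.20 in standard medium. EXPA9 was the only expansin of 11 called higher (1.53, beside 6.95% of all genes), and EXLA3 the only lower (-1.54). COR47, a dehydrin induced by abscisic acid, gave 11.37, 11.43 and 11.43 in the epidermis, below all 9 other arrays (12.54 to 12.97). Its contrast was -1.41 under salt and -1.06 in standard medium. WRKY53, a transcription factor of stress and senescence, was higher in both media, at 1.23 under salt and 2.29 in standard medium, with a change of -1.06 (adjusted p = 0.0446) that came to -0.65 and was not called without replicate 1 of the epidermis in standard medium. With the mean of 1 h and 48 h of standard medium as the standard, an alternative chosen after seeing the data, that change was -0.01 (adjusted p = 0.984).

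The 2 contrasts rest on separate arrays and may be set beside each other. Of the genes higher in the epidermis, 260 were called in both media, which is 51.4% of the salt list and 53.9% of the standard list. Of the genes lower in the epidermis, 544 were called in both, or 64.9% and 66.3%. The sign under salt was the same in standard medium for 498 of the 506 higher genes and 797 of the 838 lower ones. None of the 506 was called lower in standard medium, and 3 of the 838 were called higher there. AT1G26380 was such a gene, with a contrast of -1.05 under salt and 1.99 in standard medium, and its call under salt was lost without epidermis replicate 2 or 3, endodermis replicate 1 or stele replicate 1. It was also lost with each array centred on its median (-0.90), without the cortex in the mean (-0.90) and, just under the threshold, with quantile normalization. The 506 genes had a median contrast of 1.22 under salt and 1.06 in standard medium, and the 838 genes had -1.63 and -1.40. The 482 genes called higher in standard medium had 1.04 under salt and 1.51 in standard medium. The 821 called lower there had -1.41 and -1.67. Each list had its larger median in the medium that chose it, which the selection favours. Among the steadiest genes AT3G49630 had 2.06 and 2.05, AT1G52050 had 2.34 and 2.32, and AT3G47800 had 2.36 and 2.31. Constancy of the contrast did not mean a constant level, since AT1G52050 fell and AT3G47800 rose with salt in the epidermis and in the mean of the other types.

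Most genes called higher under salt alone had risen with salt in the epidermis. Of these 246 genes, 189 rose in the epidermis with salt and 143 rose in the mean of the other types, with median responses of 1.78 and 1.14. Of all tested genes, 15.6% rose and 12.6% fell with salt in the epidermis, and 10.6% rose and 10.1% fell in the mean of the other types. Their median contrast was 1.13 under salt and 0.56 in standard medium, and in 29 of them the difference between the media was itself called. Of the 222 genes called higher in standard medium alone, 84 fell in the epidermis and 36 fell in the mean of the other types, and the difference was called in 73. Of the 294 genes lower under salt alone, 128 fell in the epidermis, 73 rose in the other types, and the difference was called in 133. Of the 277 lower in standard medium alone, 67 rose in the epidermis, 73 fell in the other types, and the difference was called in 89. Each list was chosen on arrays that also give the responses, so the selection favours such responses and the counts are descriptive.

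**Figure D4:**
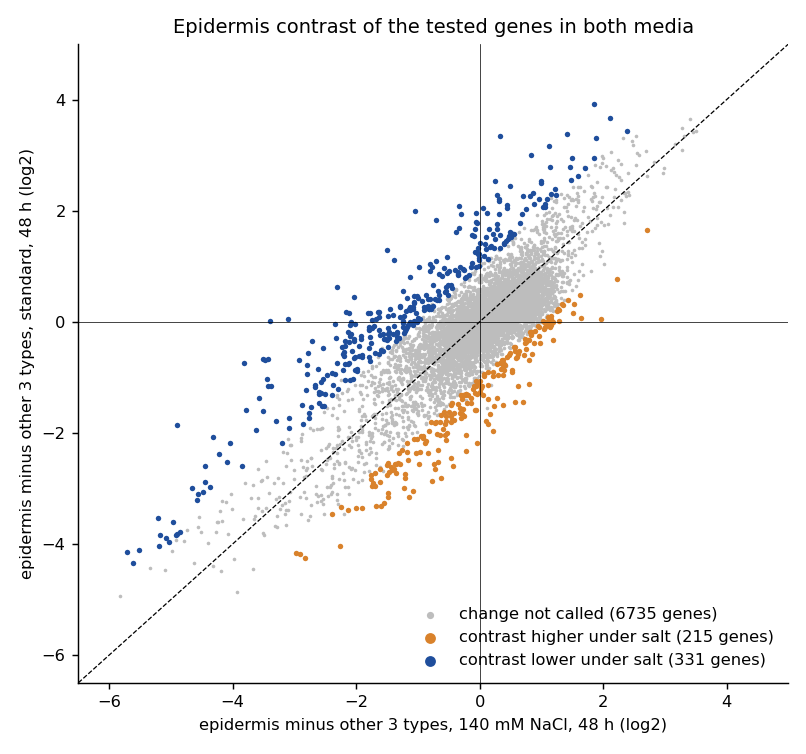
Epidermis contrast (log2) of each of the 7281 tested genes at 48 h of 140 mM NaCl (horizontal axis) and of standard medium (vertical axis), with the dashed line marking equal values. Orange points are the 215 genes whose contrast was called higher under salt and blue points the 331 called lower, and the points far to the lower left mark deficits kept in both media.

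The difference between the media, tested gene by gene, was called for 546 genes (7.5%), of which 215 went up (2.95%) and 331 went down (4.55%). It uses the arrays of both contrasts and is not independent of either. It also equals the epidermis response minus the mean response of the other types, so counts of those responses describe its parts. Of the 215 genes that went up, 105 rose with salt in the epidermis and 77 fell in the mean of the other types. Of the 331 that went down, 189 fell in the epidermis and 90 rose in the other types. The median response of the 331 was -1.24 in the epidermis and 0.09 in the other types. That of the 215 was 0.94 in the epidermis and -0.36 in the other types.

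The 8 largest gains were of genes called lower in standard medium and not called under salt. Cpn60beta3, a chaperonin subunit of plastids, gave 7.93, 7.58 and 8.06 in the epidermis under salt and 4.22, 5.20 and 5.87 in standard medium. The other types had means of 7.12 to 8.03 under salt and 6.43 to 7.99 in standard medium, so the contrast was 0.21 under salt and -1.98 in standard medium. AT1G30820 likewise rose in the epidermis, to 9.53 ± 0.18 under salt, against 5.87 ± 0.50 in standard medium (SD, n = 3 each). AT1G16350 and AT5G19875 rose in the epidermis too, and their contrasts were -0.22 and -0.77 under salt, against -2.32 and -2.86 in standard medium. In bZIP58, a transcription factor, and GH9B8, of a glycosyl hydrolase family that holds cellulases, the epidermis was low in both media and the other types fell. GH9B8 gave 3.62, 3.72 and 3.58 in the epidermis under salt, with 3.37 to 4.89 elsewhere, whereas the 9 other arrays in standard medium ran from 4.78 to 7.28. In AT1G72900 (2.14) and AT1G71000 (2.01) the others fell too and the epidermis response was not called.

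Among the 8 largest losses some genes fell in the epidermis and others rose in the inner tissues. AT5G52670 had the largest change, -3.41 ± 0.28 (SE, adjusted p = 6.28e-15), with 2.81, 3.67 and 3.18 in the epidermis under salt, against 5.53 to 8.34 elsewhere. In standard medium the epidermis gave 4.20, 3.53 and 2.80, among 2.80 to 4.12 in the other types, and so the groups overlapped. In AT4G11190 and AT1G26380 the others also rose, with changes of -3.04 and -3.04. AT4G19460 lost an excess, since the epidermis gave 5.71, 5.77 and 4.89 under salt and 9.07, 8.11 and 6.84 in standard medium. Its contrast was 0.32 under salt and 3.35 in standard medium. AT5G61340 fell in the epidermis to 3.57 under salt, against 7.82 in standard medium, and changed by -3.09. AT5G47980 changed by -2.94, as the epidermis fell and the other types rose.

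The epidermis was also set against each inner tissue alone, and differences in these shares between the media were not tested. Of the 506 genes higher under salt, 484 (95.7%) were also called higher than the endodermis alone, 310 (61.3%) than the cortex and 315 (62.3%) than the stele, beside 13.3%, 5.92% and 5.89% of all genes. Of the 482 in standard medium, 421 (87.3%) were called against the endodermis, 420 (87.1%) against the cortex and 385 (79.9%) against the stele, beside 9.57%, 6.63% and 7.47% of all genes. The endodermis mean was the lowest of the other 3 for 82.2% of the salt genes and 62% of the standard genes, and the cortex was the highest for 50.4% and 42.7%. Genes higher than each of the other 3 types numbered 181 under salt (2.49%) and 292 in standard medium (4.01%). These shared 105 genes, 58% of the salt list and 36% of the standard list. That gap depends on the scale of the arrays, since with each array centred on its median both counts were 369. Under that centring 89.8% of the salt genes were called against the endodermis, 74.2% against the cortex and 74.8% against the stele, so the lead of the endodermis remained but was smaller. Genes lower than each of the 3 types numbered 400 under salt (5.49%) and 474 in standard medium (6.51%), with 238 shared. The 3 pairs share the epidermis arrays and are not independent. The 506 and 482 genes were called on the same arrays, so their shares here are raised by the selection.

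The salt-defined genes were then followed through the other conditions, in each of which all 4 types again had 3 arrays. Of the 506 higher genes, 47.6% were called in the same direction at 1 h of standard medium and 51.4% at 48 h. Under salt the share was 66.4% at 1 h, 87% at 3 h, 73.5% at 8 h, 49.2% at 20 h and 83.2% at 32 h. Background calls moved as well, since 6.33% of all genes were called higher at 1 h of standard medium, and under salt 11.4% at 1 h, 14.5% at 3 h, 9.96% at 8 h, 4.66% at 20 h and 9.67% at 32 h. The median contrast of the 506 genes was 0.94 at 1 h of standard medium, and under salt it was 1.25 at 1 h, 1.58 at 3 h, 1.27 at 8 h, 0.99 at 20 h and 1.32 at 32 h. Of the 838 lower genes, the share was 63.6% at 1 h of standard medium, and under salt it was 65.6% at 1 h, 77.2% at 3 h, 78.2% at 8 h, 75.8% at 20 h and 87.8% at 32 h. Of all genes, 11.7% were called lower at 1 h of standard medium, and under salt 10.5%, 11.5%, 12.6%, 10.6% and 12.2% at 1, 3, 8, 20 and 32 h. The dip at 20 h was thus seen in the higher genes more than in the lower ones, a difference that was not tested. With each array centred on its median, 400 of 778 genes higher at 48 h were also higher at 20 h, against 249 of 506 as deposited. These conditions use other arrays than the ones that defined the lists.

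**Figure D5:**
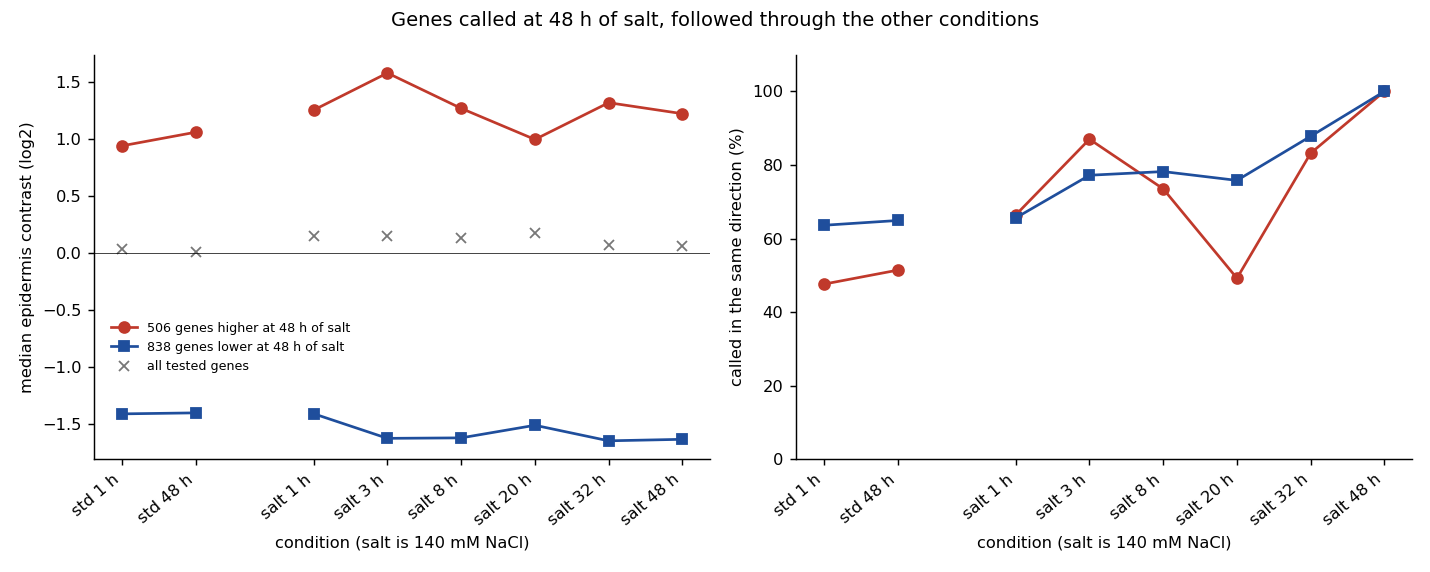
Median epidermis contrast (log2, left) and share of genes called in the same direction (percent, right) for the 506 genes called higher and the 838 called lower at 48 h of 140 mM NaCl, in each of the 8 conditions. Crosses give the median of all tested genes, and the higher genes fall to 49.2% called at 20 h while the lower genes stay at 75.8%.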

How the data were processed

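RNA was measured on 96 Affymetrix ATH1 arrays in 32 groups of 3. The deposited values are log2 expression values, made by the authors with Affymetrix Expression Console and GCRMA, per the submitters' processing notes. GCRMA models background from probe base composition, which can compress differences near background. Array medians were 4.51 to 4.97, and no further scaling was applied. Of 22810 probe sets, 13513 pair with a single gene in the platform annotation; the brightest was kept, giving 13356 genes. The 7281 genes that reached a mean of 5 in at least 1 group were tested. The number of arrays and signal near background limit the precision.

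One mean per group was fitted over the 96 arrays with limma 3.58.1 in R 4.3.3 (64 residual degrees of freedom, eBayes, two-sided, Benjamini-Hochberg over all tested genes). The procedure was tested on simulated data that gave each gene the same spread in every group, so unequal spread between groups was not covered. The labels do not say that replicates came from separate cultures, so p-values measure only the spread within groups, which may be technical variation. That spread was pooled per gene over the 32 groups. The median SD per gene was 0.29 for the epidermis in standard medium at 48 h, against 0.12 to 0.21 in the other groups at 48 h. Tests that use this group, as all changes between media do, can thus understate its spread. Members and gene lists were chosen with earlier results of these data known. Gene families were compiled from symbols in the annotation, apart from the class III peroxidases. Those were listed by 74 gene codes, of which 55 had a probe set for a single gene and 40 were tested. Unless said otherwise, named genes are the 12 largest excesses and deficits whose arrays did not overlap, the 8 largest changes each way, 6 steady genes, up to 4 members of each list and every tested marker. Promoter sequences were not used here. Replicate numbers did not pair the samples: deviations of same-numbered arrays correlated at -0.14 to 0.19 under salt and -0.23 to 0.31 in standard medium.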

Additional observations from a re-analysis of the deposited data

Results flagged for a closer look

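The epidermis contrast differed between salt and standard medium at 48 h, by the test of the difference itself, for 57 of the genes covered by the naming rule, 15 with a higher and 42 with a lower contrast under salt. The values below are the change in contrast, salt minus standard, in log2.

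Among the genes with a higher contrast under salt, the change was 2.19 for bZIP58, 2.19 for Cpn60beta3, 2.16 for GH9B8, 2.15 for AT1G30820, 2.14 for AT1G72900, 2.11 for AT1G16350, 2.09 for AT5G19875 and 2.01 for AT1G71000. It was 1.64 for XTH21, 1.46 for CYP78A9, 1.37 for the late embryogenesis abundant gene LEA4-5, 1.25 for CYP71B34, 1.19 for the tetraspanin TET2, 1.09 for the subtilase ATSBT5.2 and 1.06 for ASPGB1.

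Among the genes with a lower contrast under salt, the largest changes were -3.41 for AT5G52670, -3.09 for AT5G61340, -3.04 for AT4G11190, -3.04 for AT1G26380, -3.02 for AT4G19460 and -2.94 for AT5G47980. Among the peroxidases the change was -3.15 for PRX52, -2.84 for AT4G08780, -1.57 for AT1G44970, -1.34 for AT5G66390 and -1.18 for Prx37. Among the beta-glucosidases it was -2.77 for BGLU45, -2.04 for BGLU40 and -1.77 for BGLU28. The wall-related genes TBL37, TBL38, TBL41, GH9B13, EXLA3, GH9C2 and EXPB1 changed by -2.25, -2.22, -1.57, -1.60, -1.23, -1.11 and -1.07. The glycosyltransferases UGT76E12, UGT74B1 and UGT74D1 changed by -1.55, -1.52 and -1.08.

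The regulators and calmodulin-like genes BZIP61, WRKY22, CML42, CML30 and WRKY53 changed by -1.95, -1.24, -1.22, -1.06 and -1.06. The marker-list genes AT2G14095, AT1G61590 and AT5G48940 changed by -2.01, -1.27 and -1.15. Smaller families gave -1.82 for JAL22, -1.72 for SWEET2, -1.56 for PDF2.5, -1.56 for scpl28, -1.42 for GSTU27 and -1.18 for LCR69. The depleted genes known by code gave -1.69 for AT1G30750, -1.41 for AT2G14900, -1.16 for AT1G12080 and -1.06 for AT3G22620. The changes of PDF2.5, GH9C2, AT1G12080, UGT74D1, EXPB1 and GH9B13 were not called without replicate 3 of the epidermis in standard medium, those of AT3G22620, LEA4-5, WRKY22, CML30 (-0.54) and LCR69 (-0.76) not without replicate 1 of that group, and those of Prx37 and EXLA3 not without epidermis replicate 2 under salt. Without epidermis replicate 1 under salt, TET2 was not called. LCR69 was not called without any 1 of the 3 epidermis arrays under salt. ATSBT5.2, whose change lay close to the threshold, was not called with quantile normalization (0.93), with the 48 h arrays alone (adjusted p = 0.0715), with array weights, or without most single arrays, among them replicate 2 of the epidermis in standard medium (0.88). Without replicate 1 of the epidermis in standard medium, AT2G14095 kept its call at -1.31. With the stele left out of the mean, the change was -0.13 for AT1G12080 (adjusted p = 0.849), -0.53 for EXPB1 and 1.28 for AT1G71000. With the cortex left out it was 0.70 for ATSBT5.2, -0.75 for WRKY22, -0.84 for JAL22 and -0.97 for TBL41. With the endodermis left out it was -0.63 for UGT76E12, -0.81 for BGLU28 and -0.91 for scpl28. None of these changes with a cell type left out of the mean was called. Calls were also lost without the endodermis for Prx37 (-0.98), AT3G22620 (-0.80), AT5G48940 (-0.86), TET2 (0.80), CML30, WRKY53, LCR69, ATSBT5.2 and ASPGB1. Leaving out the stele lost those of Prx37 (-0.89), GH9C2 (-0.87), CYP71B34 (0.91), PDF2.5, CML30, WRKY53 and ASPGB1. Leaving out the cortex lost those of EXPB1, LCR69 and ASPGB1.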

How the results depend on the processing

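Median centring gave 778 genes higher in the epidermis under salt (506 as deposited) and 369 higher than each other type (181), and of the 778 genes 566 were also higher at 8 h of salt (372 of 506) and 400 at 20 h (249 of 506). Leaving the cortex out of the mean gave 331 genes higher than both remaining types and 419 also higher at 20 h. Leaving out the stele gave 324 higher than both remaining types. Leaving out the endodermis gave 189 genes also higher at 1 h of salt (336), 276 at 3 h (440), 164 at 20 h and 260 at 32 h (421). With it left out 351 genes were higher at 48 h, and the cause was not tested. Requiring a group mean of 6 gave 3 beta-glucosidases with a lower contrast under salt (5), since fewer genes were tested.

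Leaving out each 48 h array in turn gave 431 to 607 genes higher and 790 to 891 lower under salt, 438 to 553 and 753 to 982 in standard medium, and 182 to 316 up and 289 to 394 down for the change. Genes higher than each other type ranged over 155 to 232 under salt and 233 to 368 in standard medium. With the replicate block 507 genes were higher and 838 lower under salt, and 216 went up and 333 down between media, so it changed no count by over 1.5 times. Of 95 named genes called under salt, 79 kept the call under every alternative run and 16 lost it under at least 1, and of 57 called changes 28 kept it and 29 lost it; 0 reversed sign. The mean of both standard durations as the standard was chosen after seeing the data and gave 247 genes up and 317 down. Promoter motifs were not run. Signal near an unknown background limits the depleted genes, 521 of 838 of which had an epidermis mean under 5.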
